A study of Sus scrofa with 81 samples.

Results

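Aminoacyl-tRNA synthetase genes were followed in pig skeletal muscle from day 33 of gestation to day 180 after birth. Members were taken by symbol from a list of 36 genes, and 35 of the 28061 genes in the table matched. Of these, 20 were classed by symbol as cytosolic and 15 as mitochondrial. All 35 were above the low-value limit and were among the 14220 genes tested. No entry was matched to HARS2. A gene listed as LOC100521256, which RefSeq names as a probable mitochondrial histidine enzyme, was not counted and is described once below.

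The study collected total RNA of skeletal muscle from Sus scrofa of the strain labelled Landrance at 27 stages, with 3 libraries per stage. The 15 prenatal stages (45 libraries) ran from E33 to E105, read as days of gestation, and the 12 postnatal stages (36 libraries) from D0 to D180, read as days after birth. The groups differed in stage alone as far as the labels state, and no treatment or genotype is named. The labels do not name the muscle, and leave unsaid whether a stage's 3 libraries are from different animals. The p-values therefore rest on variation among libraries alone, part of which may be technical. Levels are the deposited FPKM, which relate a gene's fragments to its transcript length and to all fragments of the library. The summed FPKM per library was 320339 to 452249, the number of reads is unknown, and no counting interval is given. Genes that mark muscle fibres were present throughout, with the skeletal actin ACTA1 between 187.9 and 25320 FPKM.

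Aminoacyl-tRNA synthetases attach each amino acid to its own transfer RNA, and so supply the ribosome with charged tRNA. The cytosol and the mitochondrion use largely separate sets, all encoded in the nucleus. In humans GARS and KARS serve both compartments from a single gene, and mitochondrial glutamine tRNA is charged by an indirect route. GARS and KARS are counted as cytosolic here, so the mitochondrial class does not cover all mitochondrial charging. EPRS joins the glutamate and proline enzymes in a single protein, and the phenylalanine enzyme is built from FARSA and FARSB chains. In mammals several cytosolic enzymes sit in a multisynthetase complex held by the scaffold proteins AIMP1, AIMP2 and EEF1E1. A number of cytosolic synthetase genes are known targets of ATF4, the transcription factor made when amino acids run short or the endoplasmic reticulum is stressed. ATF4 acts with C/EBP partners at a composite DNA element.

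The letters of that element, TGATGNAA on either strand, were searched in a window from 250 bases before to 50 bases after each gene start (Sscrofa11.1, RefSeq annotation release 106, joined by gene ID because the table names no build). They occurred in the windows of 546 of 19548 protein-coding genes (2.79%), of 4 of 20 cytosolic members (20%) and of 0 of 15 mitochondrial members. The 4 were AARS, CARS, TARS and YARS, the enzymes for alanine, cysteine, threonine and tyrosine. Of 30 genes on a list of ATF4 targets outside the family, 5 (16.7%) held the letters. The matching stretches are shown because all 4 genes rose at D0, and AARS and YARS also at D60, as described below. They are written 5′ to 3′ on the strand of the gene, with the matching letters in capitals, read as TTGCATCA where the match lies on the other strand.
AARS, chr6:13321504-13321533, minus strand, with the first capital 99 bases before the gene start: tttcttggccaTTGCATCAgccaatttagt
CARS, chr2:2163329-2163353, minus strand, in a 5′ untranslated exon: cggggcggtggTTGCATCAgattct
TARS, chr16:19455308-19455337, plus strand, in a 5′ untranslated exon: gcgctttcctaTTGCATCAgctggcacgag
YARS, chr6:89118788-89118816, minus strand, in a 5′ untranslated exon of 1 of 3 transcripts: acgagctcagcTGATGCAAcctaactgga
For AARS the whole 250 bases upstream of the gene start, chr6:13321424-13321673 on the minus strand, give the context of the match: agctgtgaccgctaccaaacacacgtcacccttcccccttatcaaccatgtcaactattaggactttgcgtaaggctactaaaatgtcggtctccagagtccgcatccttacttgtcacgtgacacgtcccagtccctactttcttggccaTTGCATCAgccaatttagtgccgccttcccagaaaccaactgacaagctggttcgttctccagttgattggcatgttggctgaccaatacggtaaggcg
The windows of SARS, GARS, IARS, MARS, EPRS, FARSA, FARSB, NARS, VARS and WARS did not hold these letters, and all of these genes also rose at D0. Of them SARS, GARS, IARS and MARS rose at D60. CARS and TARS, which hold the letters, were not called there, with log2 fold changes of 0.98 and 0.82. Their D60 libraries still lay above all those of D40 and D80 (limma adjusted p = 1.65e-06 and 1.64e-07). Whether the letters play a part in either rise was not tested. A window without the letters says nothing of elements elsewhere or of other forms. A match is a description of the sequence and not a site of binding.

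Levels per transcript length spanned a wide range among the members. KARS, the lysine enzyme, was the most abundant, with 225.6 ± 28.1 FPKM before birth (SD, n = 45 libraries) and 134.8 ± 23.9 after it (SD, n = 36). QARS, for glutamine, measured 82.2 ± 6.56 FPKM before birth, next below KARS, and 41.7 ± 7.34 after it, where SARS (63.3 ± 42.7) and DARS (56.5 ± 11.5) had higher means. MARS2, the mitochondrial methionine enzyme, was the least abundant and averaged 1.08 FPKM over the 81 libraries and reached 1 FPKM in 44 of them. The most abundant mitochondrial member was IARS2, for isoleucine, at 13.9 FPKM over all libraries. The summed FPKM of the 20 cytosolic genes was 858.8 ± 29.8 at E33 and 453.9 ± 22.6 at D180 (SD, n = 3 each), and that of the 15 mitochondrial genes was 127.8 ± 7.58 and 60.3 ± 2.32.

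All 35 members differed between stages by limma's moderated F test at a Benjamini-Hochberg adjusted p below 0.05, as did 99.3% of all genes tested, so the count sets the members apart from nothing. The stages of the highest mean separated the classes more, although several members had near ties between stages. Of the cytosolic genes, 15 had their highest stage mean at D0, 4 at E33 and 1 (QARS) at E65. Of the mitochondrial genes, 9 had it at E33, 3 (FARS2, LARS2 and YARS2) at D0 and 1 each at E95 (MARS2), E105 (IARS2) and D180 (NARS2). WARS, for tryptophan, stood close between stages, with 12.6 ± 1.23 FPKM at E33 and 11.8 ± 4.56 at D0, a difference within the spread of the D0 libraries. Means at D0 and E33 were also close in VARS (11.9 and 11.7 FPKM), LARS (39.1 and 38.2), WARS2 (8.50 and 8.75) and VARS2 (6.53 and 6.62). DARS had 85.5 at D0 and 79.3 at E105. Each of these differences was smaller than the SD of the D0 libraries, so the peak stage of these genes is not settled.

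**Figure D1:**
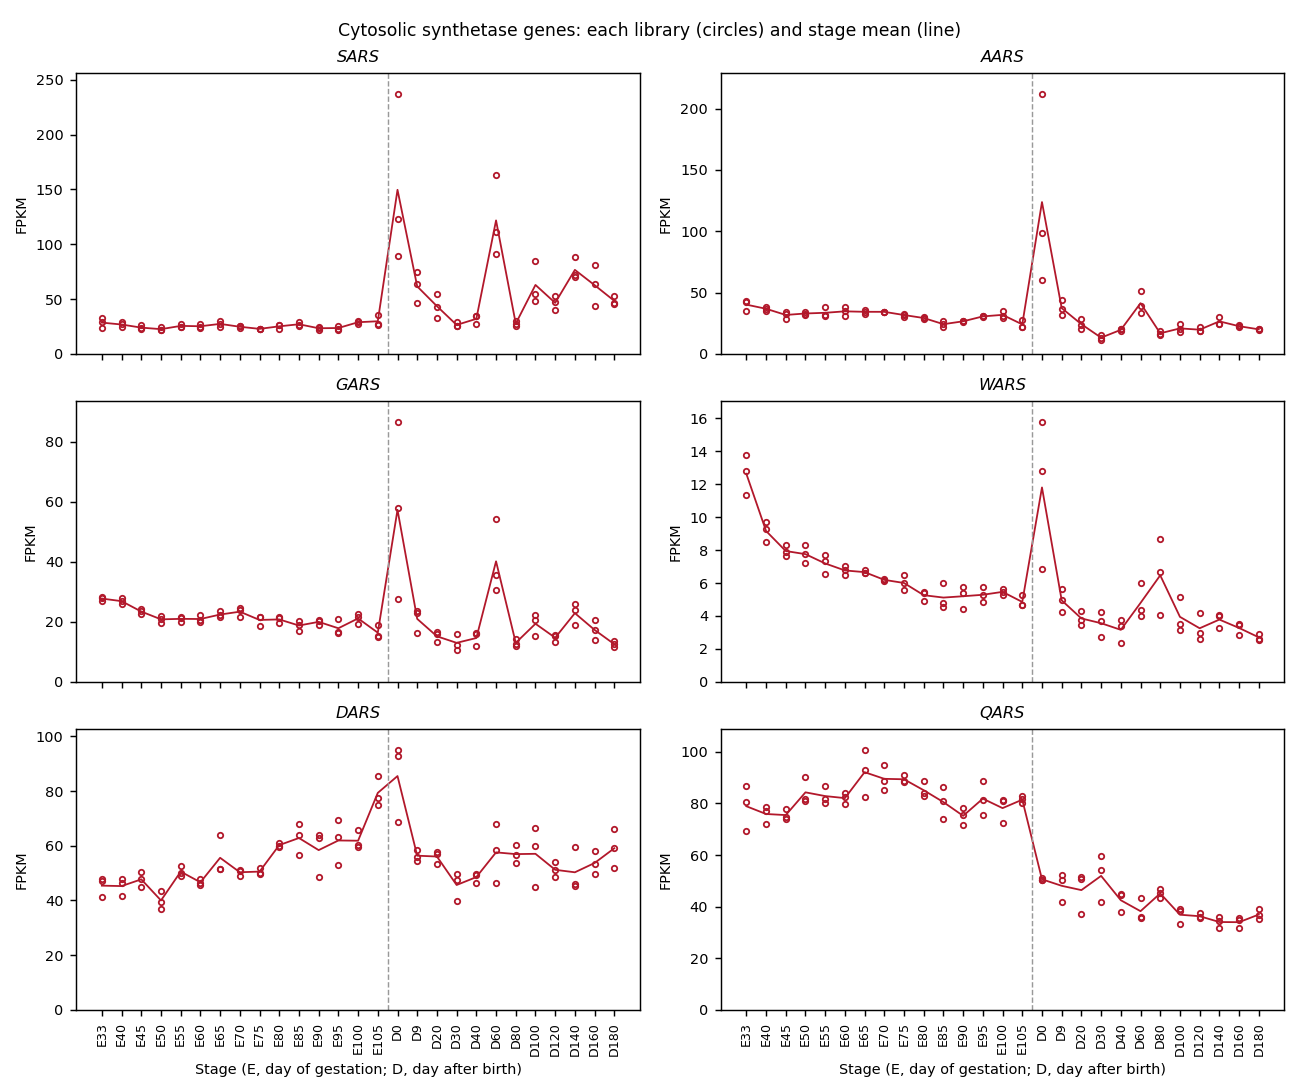
FPKM of 6 cytosolic members in every library (circles) and as stage means (lines) over the 27 stages; the dashed line parts prenatal from postnatal stages. SARS, AARS and GARS stand high at D0, and SARS and GARS again at D60, where AARS lies near its E33 mean. WARS stands high at E33 and D0, while DARS has its 2 highest means at E105 and D0 and QARS lies lower after birth.

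The day of birth brought the largest set of calls. A gene was called when its adjusted p was below 0.05 and its log2 fold change was at least 1 in size. At D0, 14 of the 20 cytosolic genes rose over E105 and none of the 15 mitochondrial genes did, against 2.78% of all genes tested called higher and 9.38% called lower. The median log2 fold change was 1.14 for the cytosolic members, 0.12 for the mitochondrial members and -0.20 for all genes tested. In bulk muscle, a difference in the number of cells of a type and a difference in RNA per cell cannot be told apart.

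SARS, which charges serine tRNA, measured 35.4, 26.8 and 27.1 FPKM in the E105 libraries and 236.9, 123 and 89.0 in the D0 libraries. AARS measured 27.8, 22.2 and 22.2 FPKM at E105 and 211.9, 98.8 and 60.6 at D0. Neither gene's D0 range overlapped its E105 range, and in both the first D0 library was the highest by far. SARS rose by 2.18 ± 0.20 on the log2 scale (SE, adjusted p = 7.21e-14) and AARS by 2.13 ± 0.18 (adjusted p = 4.54e-15). Here and below, a gene's SE and adjusted p rest on its spread pooled over all stages. They do not measure the wider spread of genes such as SARS and AARS among the D0 libraries. With only the libraries of D0 and E105 in the fit, which still pools both stages, 14 cytosolic members were called higher. GARS, for glycine, went from 18.9, 15.01 and 15.2 FPKM to 86.6, 57.8 and 27.5, a rise of 1.61 ± 0.19 (adjusted p = 1.53e-10). YARS went from 14.4, 12.6 and 13.4 FPKM to 66.3, 45.1 and 24.2, a rise of 1.57 ± 0.16 (adjusted p = 1.65e-12). In GARS, YARS and CARS the order of the D0 libraries was the same, replicate 1 above replicate 2 above replicate 3. CARS had the lowest level of these, 3.40 ± 0.38 FPKM at E105 and 10.3 ± 4.36 at D0 (SD, n = 3 each), and rose by 1.28 ± 0.17.

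The other 9 called genes rose by between 1.04 (EPRS) and 1.26 (NARS, for asparagine) on the log2 scale. FARSA and FARSB, whose products form a single enzyme, rose by 1.21 ± 0.14 and 1.16 ± 0.14. FARSB differed from most members in the closeness of its D0 libraries, at 58.2, 53.5 and 59.6 FPKM against 27.1, 25.1 and 22.7 at E105. VARS (valine) rose by 1.23 ± 0.16, MARS (methionine) by 1.22 ± 0.14, TARS by 1.13 ± 0.13, IARS (isoleucine) by 1.12 ± 0.14 and WARS by 1.06 ± 0.17.

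KARS and QARS, the most abundant members over all libraries, lay the other way without reaching the fold change of a call. KARS measured 194.5, 183.3 and 180.6 FPKM at E105 and 129.8, 128.3 and 131.3 at D0, a log2 difference of -0.52 ± 0.12 (adjusted p = 0.000293). QARS measured 80.04, 81.6 and 82.8 FPKM at E105 and 50.4, 50.4 and 51.0 at D0, a difference of -0.68 ± 0.10 (adjusted p = 6.93e-08). For both genes the D0 libraries lay close together and wholly below those of E105. DARS, for aspartate, measured 79.3 ± 5.52 FPKM at E105 and 85.5 ± 14.6 at D0, with overlapping libraries and a difference of 0.09 ± 0.12 (adjusted p = 0.537). RARS (arginine), HARS (histidine) and LARS (leucine) differed by 0.66, 0.60 and 0.50 and were not called.

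Genes of the multisynthetase complex differed among themselves. Of its 8 enzyme genes on the list, 3 rose (MARS, IARS and EPRS), and the median over the 8 was 0.58 against 1.14 for all cytosolic members. Of the 3 scaffold genes, AIMP2 rose by 1.47 ± 0.19, from 7.84 ± 1.77 to 23.3 ± 3.41 FPKM, while AIMP1 and EEF1E1 differed by 0.52 and 0.32 and were not called.

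Among the mitochondrial genes FARS2, for phenylalanine, came nearest to a call at D0. It measured 5.50, 4.03 and 3.798 FPKM at E105 and 7.68, 12.2 and 7.99 at D0, a difference of 0.91 ± 0.14 (adjusted p = 1.18e-07). Its second D0 library was the highest, unlike the order in SARS and AARS. WARS2 differed by 0.66 ± 0.13, and the remaining mitochondrial members lay between -0.34 (CARS2) and 0.48 (TARS2). Set beside each other, AARS rose by 2.13 and AARS2 differed by -0.28, and SARS rose by 2.18 and SARS2 differed by 0.21. CARS rose by 1.28 with CARS2 at -0.34, and MARS rose by 1.22 with MARS2 at -0.18. IARS rose by 1.12 with IARS2 at -0.32, and NARS by 1.26 with NARS2 at -0.10. In the pairs that follow the mitochondrial gene also had a positive value. WARS rose by 1.06 with WARS2 at 0.66, TARS by 1.13 with TARS2 at 0.48 and YARS by 1.57 with YARS2 at 0.45, beside FARSA and FARSB with FARS2 above. VARS rose by 1.23 with VARS2 at 0.12. RARS (0.66) and LARS (0.50), not called, stood beside RARS2 (0.11) and LARS2 (0.41). IARS2, TARS2 and YARS2 share exon bases with other genes, as given below. The uncounted gene LOC100521256 measured 13.0 ± 1.41 FPKM at E105, 16.5 ± 0.88 at D0 and 10.2 ± 1.32 at D9.

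**Figure D2:**
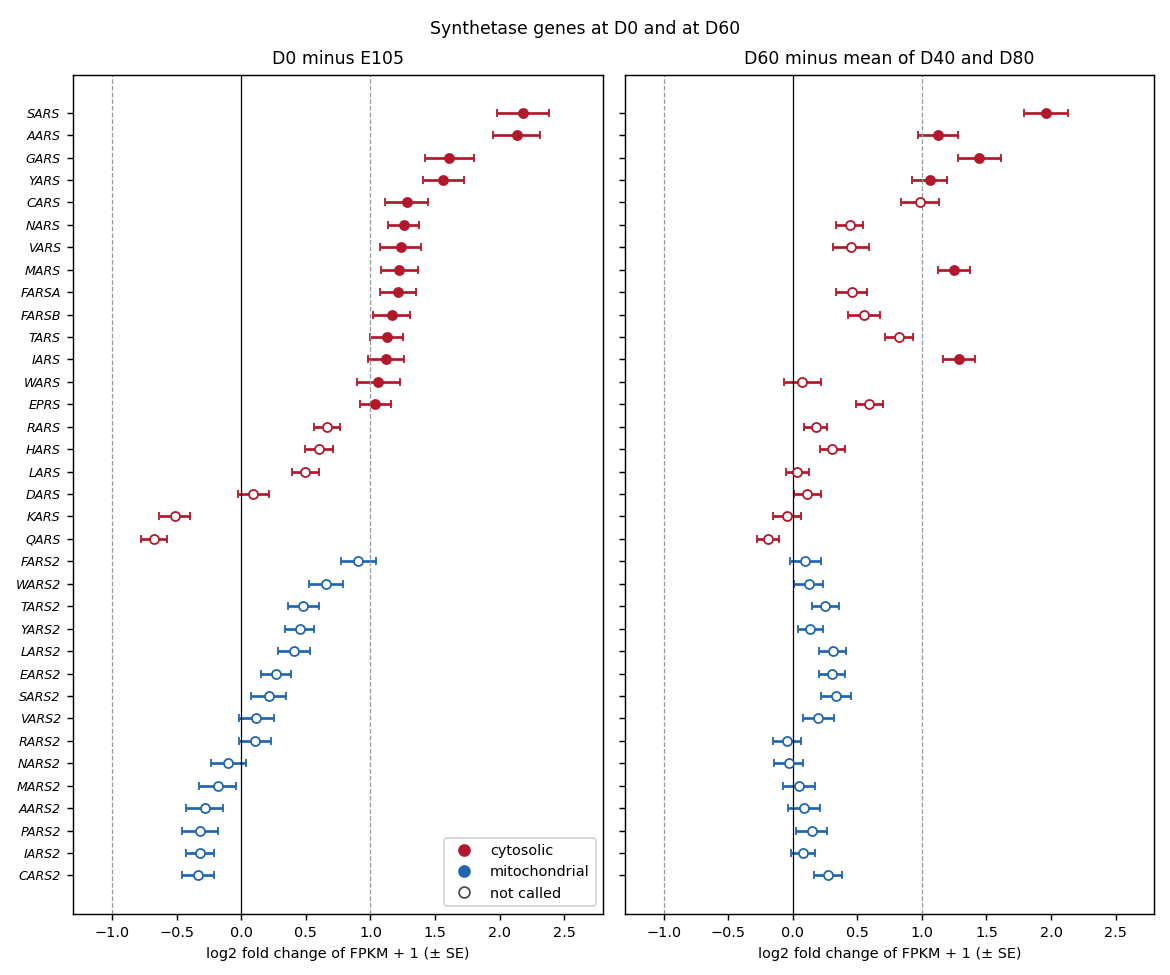
Log2 fold change of FPKM + 1 (points) with its standard error (bars) for each of the 35 members, at D0 against E105 on the left and at D60 against the mean of D40 and D80 on the right; filled points were called and dashed lines mark the fold change of a call. Filled points are all cytosolic, 14 at D0 and 6 at D60, and KARS and QARS have negative values in both panels. Bars rest on each gene's spread pooled over all stages and do not measure the spread at D0 or D60 alone.

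The D0 libraries were unequal. The summed FPKM of the cytosolic members was 1465, 1065 and 889.4 at D0 and 690.4, 666 and 646.3 at E105. Without the first D0 library, 11 members were called: EPRS (0.92), IARS (0.91), TARS (0.89) and WARS (0.83) fell short of the fold change, and FARS2 reached 1.02. Without the second, WARS fell short at 0.97, and without the first E105 library FARS2 reached 1.04. EPRS was not called with quantile normalisation (0.951). FARS2 was called with quantile normalisation (1.082), a pseudocount of 0.1 (1.04), equal sums (1.01) and scaling by median ratios (1.03), and under the last 541 genes of all tested were called higher and 983 lower, in place of 395 and 1334.

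Other genes moved in the same libraries. Of the 30 ATF4 target genes tested, 10 rose at D0 and none fell, with a median of 0.85. ATF5, a transcription factor of the same response, measured 2.97, 2.61 and 2.699 FPKM at E105 and 100.5, 22.2 and 44.7 at D0, a rise of 3.66 ± 0.31 (adjusted p = 3.74e-15). CHAC1, which degrades glutathione, and MTHFD2, of mitochondrial folate metabolism, rose by 2.50 and 1.87. ASNS, asparagine synthetase, differed by 0.87 ± 0.38 (adjusted p = 0.0477) and was not called, and none of the 12 tested genes for eIF2 alpha kinases, phosphatase and exchange factor was called.

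Genes that act beside charged tRNA also rose in part. EIF5A and EEF1A2 of the 8 cytosolic elongation factor genes rose by 1.53 and 1.10. TUFM, which carries charged tRNA to the mitochondrial ribosome, rose by 1.04 ± 0.13, from 34.4 ± 4.58 to 72.3 ± 14.4 FPKM, although no mitochondrial synthetase gene was called. The mitochondrial chaperone genes HSPD1 and HSPA9 rose by 2.002 and 1.97. Of the 12 other tRNA charging and editing genes 1 rose (PTRH2), as did 1 of 10 unfolded protein response genes, and of 10 mitochondrial biogenesis genes 1 rose and 1 fell. Of 15 cell cycle genes, 12 fell.

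Markers of several other cell types were lower in the D0 libraries. At D0 against E105, 3 of 7 leukocyte, 3 of 4 endothelial, 3 of 3 erythroid, 2 of 4 nerve and Schwann cell and 1 of 4 fibroblast and tendon markers fell, and none of 5 muscle fibre, 3 adipocyte and 3 cartilage markers was called. Summed erythroid markers were 311.8 to 377.8 FPKM at D0 and 2351 to 3408 at E105, and summed leukocyte markers 17.5 to 24.0 and 46.8 to 54.8. CD3E was at 0 in all D0 libraries, but also in many others, 39 of the 81 libraries in all. Summed endothelial markers were 48.1 to 55.2 FPKM at D0 and 142.5 to 165.1 at E105, and those of nerve and Schwann cells 18.51 to 21.89 and 39.85 to 47.27. Adipocyte markers, though none was called, also had lower sums at D0, 77.6 to 101.6 FPKM against 132.9 to 162.4. Sums for fibroblasts and tendon (419.5 to 1888 at D0, 1056 to 1390 at E105) and cartilage (1.91 to 40.02 and 2.49 to 6.86) overlapped. Their part in the synthetase values was not tested.

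By D9 the levels of the members as deposited had fallen from those of D0. Against D0, 11 cytosolic and 2 mitochondrial members fell and none rose, with 5.44% of all genes tested called lower and 4.99% higher. This comparison uses the same D0 libraries as the one before, and its SEs are likewise pooled over all stages. AARS measured 31.6, 36.6 and 43.8 FPKM at D9, each below the lowest D0 library, and fell by 1.52 ± 0.18 (adjusted p = 3.3e-10). FARSA fell by 1.50 ± 0.14, NARS by 1.46 ± 0.12 and YARS by 1.38 ± 0.16. The mitochondrial genes were EARS2, for glutamate, which fell by 1.06 ± 0.12 to 1.48 ± 0.10 FPKM, and WARS2, which fell by 1.01 ± 0.13 to 3.73 ± 0.62 FPKM. MARS differed by -0.75 with overlapping libraries, at 17.7, 20.8 and 25.7 FPKM in D9 and 44.9, 42.6 and 24.8 in D0.

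At D9 against D0, 4 of 7 leukocyte, 3 of 3 erythroid, 2 of 5 muscle fibre, 1 of 4 endothelial and 1 of 3 adipocyte markers rose and 1 of 3 cartilage markers fell. Summed erythroid markers were 1511 to 2231 FPKM at D9, against 311.8 to 377.8 at D0, and summed muscle fibre markers 19790 to 21740, against 6292 to 9709. Their part in the synthetase values was not tested. Leaving out the first D0 library left 9 calls, without CARS, GARS, SARS and WARS. WARS was also lost without D0 replicate 2 or D9 replicate 1, SARS without D9 replicate 1, EARS2 without D0 replicate 2, and WARS2 without D0 replicate 2 or D9 replicate 1 or 3, while leaving out D0 replicate 3 gave 17. The size of the fall also depended on the scaling. With median-ratio scaling or quantile normalisation 3 members were called lower at D9, among 278 genes called lower and 1187 higher with the former, in place of 773 and 709 as deposited. With equal sums 11 were called, without WARS and WARS2, and with only the libraries of D0 and D9 in the fit 11, without GARS (adjusted p = 0.0509) and SARS (adjusted p = 0.051). The median of the cytosolic members was -1.11 as deposited and -0.74 with median-ratio scaling. Against E105, a single member was called higher at D9, with 2.14% of all genes tested called higher and 7.09% lower. SARS measured 46.3, 64.0 and 74.4 FPKM, a rise of 1.01 ± 0.20 (adjusted p = 2.11e-05). Without replicate 2 or 3 of either stage its difference lay between 0.86 and 0.97 and was not called. By adjusted p alone 4 members were higher, among them AARS (0.61) and MARS (0.47), and 16 were lower. The cytosolic median against E105 was -0.07 as deposited (all genes tested -0.385). It was 0.43 with median-ratio scaling (all genes -0.017) and 0.30 with quantile normalisation (all genes -0.038), so the return to E105 levels depended on the scaling.

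At D60 a second set of members stood above the neighbouring stages. Against the mean of D40 and D80, 6 cytosolic and no mitochondrial members rose and none fell, while 0.478% of all genes tested were called higher and 0.415% lower. The median log2 fold change was 0.50 for the cytosolic members, 0.14 for the mitochondrial ones and 0.001 for all genes tested. SARS measured 110.9, 163.2 and 90.9 FPKM at D60, against 27.0, 34.1 and 34.9 at D40 and 25.6, 27.4 and 29.96 at D80. The groups were far apart, and SARS rose by 1.96 ± 0.17 (adjusted p = 1.56e-12). GARS measured 35.7, 54.1 and 30.6 FPKM at D60, 11.8, 15.8 and 16.2 at D40 and 14.3, 11.96 and 12.6 at D80, a rise of 1.45 ± 0.16 (adjusted p = 1.57e-09). In SARS, GARS, IARS and MARS the second D60 library was the highest.

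IARS rose by 1.29 ± 0.12 (51.0 ± 8.91 FPKM at D60), MARS by 1.25 ± 0.12 (27.0 ± 8.12), AARS by 1.12 ± 0.16 (41.4 ± 9.42) and YARS by 1.06 ± 0.14 (19.3 ± 1.63). Over all stages the D60 means of SARS, GARS, IARS and AARS were second to those of D0. Fetal levels were as high in part: at E33 AARS measured 40.2 ± 4.58 FPKM, MARS 29.6 ± 1.21 and YARS 25.1 ± 1.52. CARS (0.98 ± 0.14) and TARS (0.82 ± 0.11) were not called. LARS, DARS, WARS, KARS and QARS had values between -0.19 and 0.11, and all mitochondrial members lay between -0.04 and 0.34. Without the second D60 library AARS (0.955) and YARS (0.997) were not called, which left 4, and YARS (0.99) was also not called without the first D40 library. Other settings also moved calls near the threshold. YARS was not called with quantile normalisation (0.956), equal sums (0.967) or D40 alone as reference (0.912), and AARS was not called with quantile normalisation (0.965). CARS was called with pseudocounts of 0.1 (1.29) and 0.5 (1.13), median-ratio scaling (1.06), quantile normalisation (1.06) or D80 alone as reference (1.24). It was also called (1.02 to 1.03) without D40 replicate 3, D60 replicate 1 or 3, or D80 replicate 3.

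Of the ATF4 targets outside the family, 16 of 30 rose at D60 and none fell, with a median of 1.09. D60 was compared because earlier results of these data showed amino acid response genes high there, so this count is no separate support. ATF5 measured 82.9, 79.6 and 77.8 FPKM at D60 and 1.25 to 4.51 in the 6 libraries of D40 and D80, a rise of 4.55 ± 0.27 (adjusted p = 3.2e-20). ASNS measured 48.9, 69.2 and 22.8 FPKM at D60 and 4.50 to 17.1 at D40 and D80, a rise of 2.12 ± 0.33 (adjusted p = 6.29e-06). FGF21, a secreted hormone, rose by 4.23 ± 0.48, PSAT1 and PHGDH of serine synthesis rose by 3.39 and 3.08, and ATF4 mRNA itself differed by 0.17 ± 0.20 (adjusted p = 0.709). None of the 8 genes for mitochondrial proteases and chaperones and none of the 8 cytosolic elongation factor genes was called. Of the markers, 3 of 7 for leukocytes fell and 1 of 3 for erythroid cells rose, with summed leukocyte markers of 61.3 to 105.6 FPKM at D60 and 81.6 to 696.6 at D40 and D80, and their part was not tested.

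The rises of D0 and D60 use separate libraries and were compared directly, a comparison chosen after the values had been seen. Their references are unlike: the D0 rise is taken against the stage before it alone, and the D60 rise against the stages on both sides. At D0, AARS lay 2.13 above E105 but 1.52 above D9, so the size of its excess depends on that choice. The D0 rise exceeded the D60 rise by 1.01 ± 0.24 on the log2 scale in AARS (adjusted p = 0.000512), the only member to pass both limits of a call, as did 2.85% of all genes tested. That call was lost without the first D0 library, where the difference was 0.53, and without D40 replicate 3, D60 replicate 1 or 3, D80 replicate 3 or E105 replicate 2 or 3, where it lay between 0.866 and 0.996. It was also lost with only the libraries of the compared stages in the fit (adjusted p = 0.0906). By adjusted p alone, among others, WARS (0.99 ± 0.22, adjusted p = 0.000215), NARS (0.82 ± 0.16), FARS2 (0.81 ± 0.18), VARS (0.78 ± 0.21), FARSA (0.76 ± 0.18) and FARSB (0.61 ± 0.19) also had the larger value at D0. For SARS the difference was 0.22 ± 0.26, for GARS 0.16 ± 0.25, for MARS -0.03 ± 0.19 and for IARS -0.16 ± 0.19, with adjusted p of 0.515 or more. For WARS the D60 value depended on the reference: its 3 D60 libraries, at 4.33, 6.02 and 4.02 FPKM, lay above all 3 of D40 (2.35 to 3.76) and overlapped those of D80 (4.08 to 8.65). The log2 difference was 0.48 against D40 alone and -0.33 against D80 alone, and it was called in neither.

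The ratio of summed cytosolic to summed mitochondrial FPKM had its highest stage means at D60 and D0, the latter through 1 library. Stage means of the ratio lay between 6.48 (E105) and 8.07 (E80) before birth. It was 13.1, 8.28 and 8.59 in the D0 libraries and 11.9, 12.9 and 10.1 in those of D60, with means of 9.98 ± 2.68 and 11.6 ± 1.44 (SD, n = 3 each). The next highest stage mean was 9.02 ± 0.56 at D80, above D0 replicates 2 and 3. Without KARS, which supplied much of the cytosolic sum, the means were 8.84 ± 2.66 at D0, 9.17 ± 1.43 at D60 and 4.68 ± 0.12 at E105. The next highest mean without KARS was 6.77 ± 0.73 at D140.

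**Figure D3:**
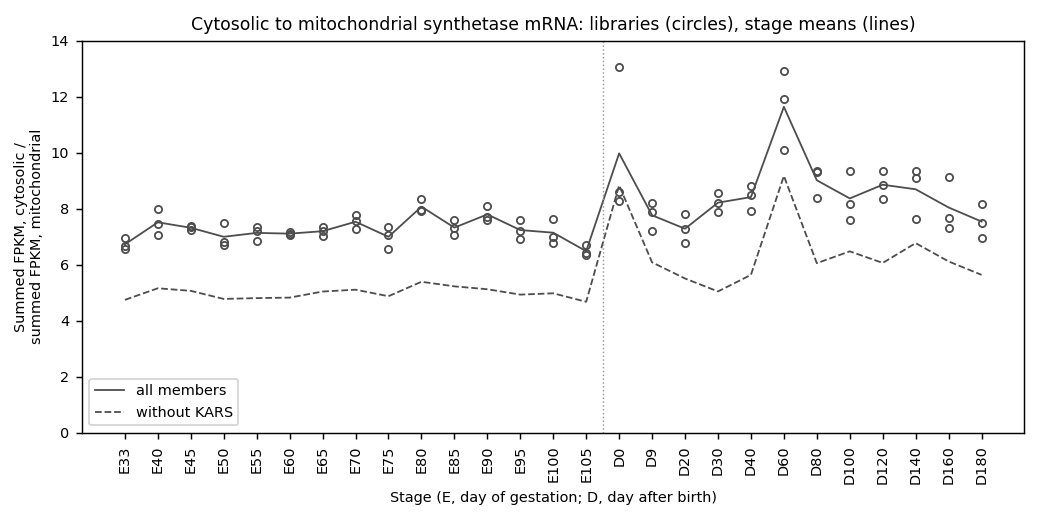
Ratio of summed FPKM of the 20 cytosolic to the 15 mitochondrial members in each library (circles), with stage means over all members (solid line) and without KARS (dashed line); the dotted line parts prenatal from postnatal stages. D0 and D60 have the highest means, 9.98 and 11.6, and the D0 libraries are spread from 8.28 to 13.1, with 1 of them above the D80 mean.

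At D80, when genes induced by interferon gamma were high, WARS was the only member with a higher level by adjusted p. No member was called at D80 against the mean of D40 and D100, where 1.03% of all genes tested were called higher and 0.999% lower. The other 6 members past the adjusted p alone were lower. WARS, a known interferon gamma target in human cells, measured 8.65, 6.68 and 4.08 FPKM at D80, 2.35, 3.76 and 3.37 at D40 and 3.54, 3.17 and 5.14 at D100. The third D80 library lay within the range of the neighbours, and the difference was 0.69 ± 0.14 (adjusted p = 0.000373). Of 13 interferon gamma response genes tested 9 rose, among them CXCL9 by 2.90 ± 0.42 and GBP1 by 2.07 ± 0.36. D80 was compared because earlier results of these data showed chemokines induced by interferon gamma high there, so their rise was known beforehand. Of 7 leukocyte markers 5 rose, with sums of 109.1 to 696.6 FPKM at D80 and 81.6 to 173.9 at D40 and D100, while 2 of 3 erythroid and 1 of 4 fibroblast and tendon markers fell, and their part in the WARS value was not tested. The D40 libraries serve in both this comparison and that of D60. SARS was lower at D80 by the same measure (-0.66 ± 0.17, adjusted p = 0.00446), and it rose by 1.12 ± 0.20 from D80 to D100.

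**Figure D4:**
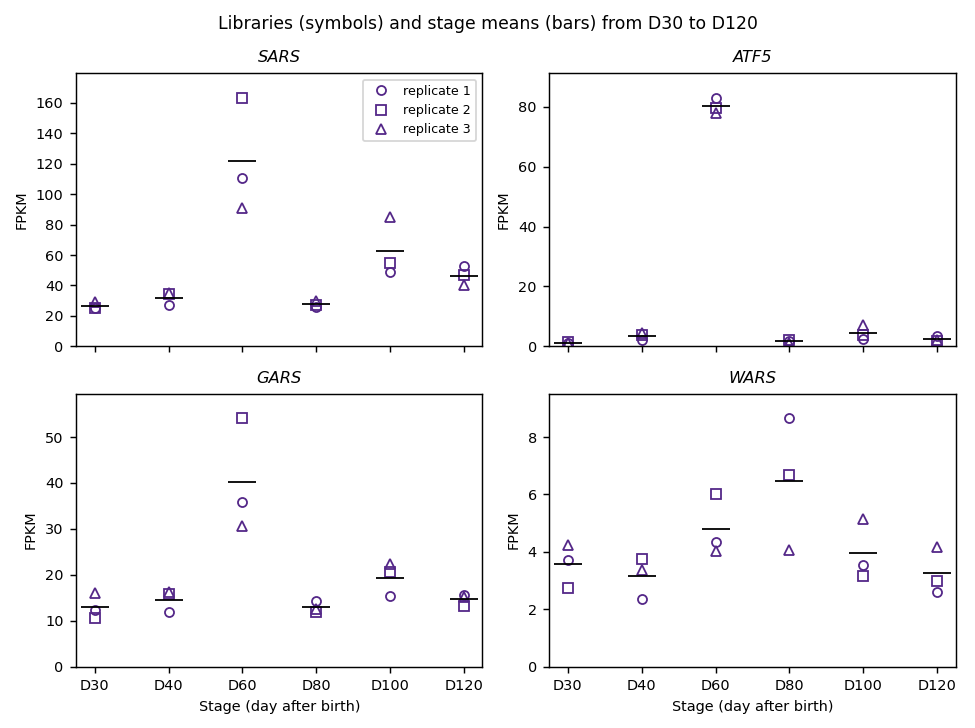
FPKM of SARS, ATF5, GARS and WARS in each library (symbols by replicate number) and as stage means (bars) from D30 to D120. SARS, ATF5 and GARS are highest in the 3 D60 libraries, whereas WARS is highest in replicate 1 of D80, and its replicate 3 of D80 lies within the range of D40 and D100.

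Later growth brought a single call. In late postnatal muscle (D140, D160 and D180) against early postnatal muscle (D20, D30 and D40), NARS2, the mitochondrial asparagine enzyme, rose by 1.23 ± 0.08 (adjusted p = 8.74e-20), with 0.788% of all genes tested called higher and 1.49% lower. Its 9 early libraries lay between 3.49 and 5.21 FPKM and its 9 late ones between 7.59 and 17.4, without overlap. The stage means were 4.27 ± 0.69 FPKM at D40, 4.69 ± 0.70 at D80, 6.31 ± 0.96 at D100, 10.6 ± 2.70 at D120 and 14.8 ± 2.60 at D180 (SD, n = 3 each). The second highest mean, 11.0 FPKM at D160, lay close to that of D120. The cytosolic NARS differed by 0.22 ± 0.07 in the same comparison. SARS came next among all members at 0.86 ± 0.12, with 25.1 to 54.6 FPKM early and 43.6 to 88.3 late. WARS2 (-0.44), PARS2 (-0.43) and QARS (-0.40) had the lowest values. In the same libraries 2 of 3 erythroid, 2 of 4 nerve and Schwann cell and 1 of 4 fibroblast and tendon markers fell and 1 of 3 adipocyte markers rose, and their part was not tested.

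**Figure D5:**
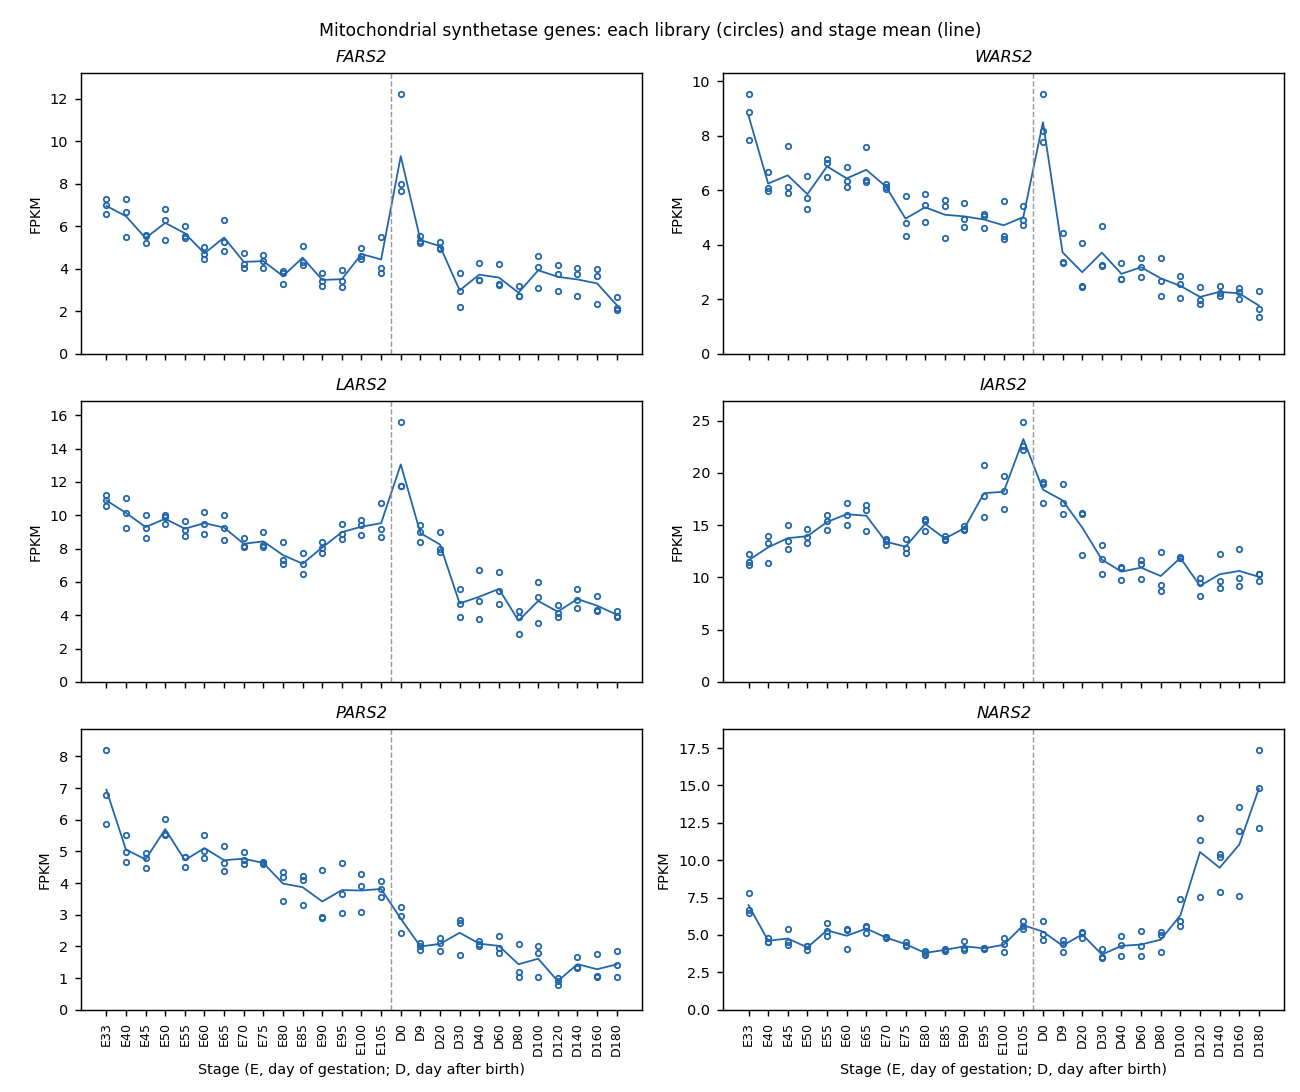
FPKM of 6 mitochondrial members in every library (circles) and as stage means (lines) over the 27 stages; the dashed line parts prenatal from postnatal stages. FARS2 and LARS2 are highest at D0, WARS2 at E33 and D0, IARS2 at E105 and PARS2 at E33. NARS2 lies at 10.6 FPKM at D120, 11.0 at D160 and 14.8 at D180.

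Across birth as a whole most members, like most genes, had lower FPKM as deposited. In all postnatal against all prenatal stages, SARS rose by 1.05 ± 0.05 (adjusted p = 1.23e-26), and HARS fell by 1.08 ± 0.03 (adjusted p = 1.51e-40) and PARS2, for proline in the mitochondrion, fell by 1.01 ± 0.04 (adjusted p = 6.07e-34). Of all genes tested 4.02% were called higher and 22.6% lower. The lowest, median and highest library of SARS were 21.5, 25.4 and 35.4 FPKM before birth and 25.1, 50.6 and 236.9 after it. For HARS they were 12.03, 17.6 and 27.4 before and 5.43, 7.18 and 26.5 after, and for PARS2 2.91, 4.62 and 8.21 before and 0.79, 1.86 and 3.23 after. The ranges overlapped in each. The medians were -0.37 for cytosolic members, -0.60 for mitochondrial members and -0.55 for all genes tested, and with median-ratio scaling they were 0.25, -0.05 and -0.10, so the sign of the cytosolic median depended on the scaling. HARS (-0.44) and PARS2 (-0.52) were then not called, with 1288 genes called higher and 1069 lower in place of 572 and 3209. SARS reached 0.93 without D0 and 0.81 without D0 and D60, and was then not called. In the same libraries 3 of 5 muscle fibre, 4 of 7 leukocyte and 3 of 3 adipocyte markers rose and 3 of 3 erythroid, 4 of 4 fibroblast and tendon, 2 of 3 cartilage and 1 of 4 endothelial markers fell, and their part was not tested. Without the second D0 library 5 members were called, and without the first D100 library 2, since PARS2 was just short. QARS did not reach the fold change (-0.98 ± 0.03), although its postnatal libraries, at 31.5 to 59.8 FPKM, lay below all prenatal ones, at 69.4 to 100.8.

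Within gestation no member was called. In late (E95, E100 and E105) against early fetal muscle (E33, E40 and E45), 6.07% of all genes tested were called higher and 9.32% lower, and the medians were -0.44 for cytosolic members, -0.29 for mitochondrial members and -0.195 for all genes tested. By adjusted p alone 28 members were lower late and 3 higher, which were DARS (0.53 ± 0.07), IARS2 (0.59 ± 0.06) and MARS2 (0.44 ± 0.08). DARS measured 46.1 ± 3.07 FPKM in the 9 early libraries and 67.7 ± 10.2 in the 9 late ones, and IARS2 12.8 ± 1.32 and 19.8 ± 3.04. WARS had the lowest value, -0.79 ± 0.10, with 9.92 ± 2.22 FPKM early and 5.20 ± 0.41 late. At E40 against E33, with 1.76% of all genes tested called higher and 1.82% lower, 6 members were lower by adjusted p alone, among them VARS (-0.55) and NARS2 (-0.51). Markers moved in both comparisons, and their part was not tested. Late in gestation 5 of 5 muscle fibre, 3 of 4 endothelial, 3 of 3 adipocyte, 1 of 7 leukocyte and 1 of 4 nerve and Schwann cell markers rose and 2 of 3 cartilage markers fell, while of 4 fibroblast and tendon markers 1 rose and 2 fell. At E40, 3 of 3 erythroid, 3 of 4 endothelial, 2 of 5 muscle fibre, 2 of 4 fibroblast and tendon and 1 of 3 cartilage markers rose.

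Without the limit on fold change, calls by adjusted p alone covered much of the transcriptome, so member counts are given beside it. At D0 against E105, 23 members were higher and 5 lower, with 14.1% and 39.2% of all genes tested. At D9 they were 0 and 30 against D0 (15.5% and 36.4%) and 4 and 16 against E105 (6.34% and 54.9%). At D60 they were 15, all cytosolic but EARS2, and 0 (5.31% and 3.28%). At D80 they were 1 and 6 (8.35% and 11.4%), and at E40 0 and 6 (6.54% and 17.7%). They were 3 and 28 in late against early fetal (24.4% and 51%), 7 and 12 in late against early postnatal (18.2% and 27%) and 2 and 30 in postnatal against prenatal stages (17.4% and 76.4%). For the D0 rise minus the D60 rise they were 12 and 5 (10% and 31%).

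Over the 26 steps between adjacent stages, the members gave 40 calls at 5 steps. Neighbouring steps share a stage's libraries, and these calls are not independent of the comparisons above. There were 14 at D0 against E105, 13 at D9 against D0, 5 at D60 against D40, 7 at D80 against D60 and 1 at D100 against D80. At the last 3 of these steps 0.288% and 2.21% of all genes tested were called higher from D40 to D60 and from D60 to D80, and 1.59% from D80 to D100, while 1.58% were called lower from D60 to D80. From D40 to D60 0.0281% were called lower, and from D80 to D100 0.612%. At the 21 steps without a member called, 0.00703% to 1.82% of all genes tested were called in a given direction. The 7 genes lower at D80 than at D60 were SARS (-2.06), GARS, IARS, MARS, CARS, AARS and YARS.

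Stage means of the members were correlated within and between classes. Over the 27 stages the median correlation of log2 stage means was 0.71 among pairs of cytosolic members, 0.67 among mitochondrial pairs and 0.64 among mixed pairs. Over the 10 postnatal stages other than D0 and D60 the medians were 0.50, 0.30 and 0.28. All pairs share the same libraries and totals, so these are descriptions. Over the 12 postnatal stages, the members whose stage means were most like those of ASNS were SARS (r = 0.78), TARS (0.76) and IARS (0.75). Without D0 and D60 the values were 0.74, 0.79 and 0.71 over 10 stages, NARS2 (0.73) came between SARS and IARS, and PARS2 (-0.82) and QARS (-0.81) stood at the other end.

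Some members share annotated exon bases with a neighbour, and strand use in the quantification is not stated, although the libraries were strand-specific per the labels. In the RefSeq annotation 7 of the 35 shared exon bases with another gene. They were TARS2 with ECM1 on the same strand (76.4% of its exon bases), and on opposite strands IARS2 with RAB3GAP2 (38.8%), YARS2 with DNM1L (21.7%), TARS with LOC100738904 (17.9%), WARS2 with HAO2 (8.31%), FARSB with LOC110256939 (4.83%) and MARS with DDIT3 and ARHGAP9 (2.12% and 1.51%). Values of these genes, the first 3 above all, are uncertain to that extent.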

How the data were processed

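The 81 libraries were sequenced as RNA. Following the labels' protocols, they were strand-specific, paired-end and made from total RNA after removal of ribosomal RNA. FPKM per gene were computed by the authors and deposited in a single table. Per the submitters' processing notes, the tools included Trimmomatic, HISAT2 2.0.4 and StringTie 1.3.1, while no source used here gives the build or annotation. FPKM are shares of a total, so a few abundant transcripts can lower all others. The table holds no counts, so depth is unknown.

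Of 28325 entries, 264 repeated a gene ID and were dropped. All 22175 NCBI gene IDs were found in the RefSeq annotation of Sscrofa11.1, and 1522 blank symbols were taken from it. Tests covered the 14220 genes that reached 1 FPKM in 3 or more libraries, and 13841 were removed. The package limma 3.58.1 (R 4.3.3) fitted 27 stage means to log2(FPKM + 1), leaving 54 residual degrees of freedom. Variances followed a trend with level, tests were two-sided, and p-values were adjusted after Benjamini and Hochberg across the genes tested. The scale understates changes near 1 FPKM. The fit was run on simulated data that gave each gene the same spread at every stage. That run does not cover the wider spread of some genes at D0. Each SE and p-value uses a single variance per gene pooled over the stages fitted, so neither measures that wider spread. Python 3.11.15, numpy 2.4.6, pandas 2.3.3 and matplotlib 3.10.9 served for tables and figures.

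The members, lists, comparisons and alternatives were chosen with earlier results of these data known, so their counts and medians are descriptions beside all genes tested. Named were up to 8 called members per class with the largest change, set anchors, each cytosolic gene beside its mitochondrial partner, and up to 4 called genes per list with anchors; further members were named to account for all. Replicate numbers did not pair libraries: deviations from stage means had a median correlation of -4e-04 between stages for the same number and -0.0017 for different ones.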

Additional observations from a re-analysis of the deposited data

How the results depend on the processing

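Of 575 values for named members under other settings, 522 kept their direction and side of the threshold, 36 lost a call, 15 gained one and 2 changed sign. Of 552 values with 1 library left out the counts were 512, 31, 6 and 3. All 5 changes of sign were WARS at D60 (0.07, not called): -0.01 with equal sums (-0.011), -0.33 against D80 alone (0.48 against D40 alone, with no change of sign), and -0.002, -0.074 and -0.055 without D40 replicate 1, D60 replicate 2 and D80 replicate 3, within a range of -0.074 to 0.177 over the libraries left out. With a replicate block the counts called were 14 at D0, 13 at D9 against D0, 6 at D60 and 40 over the steps, and the block changed no other count. By adjusted p alone the counts were 28 at D0, 30 at D9 against D0, 20 at D9 against E105, 15 at D60, 7 at D80, 6 at E40, 31 in late against early fetal, 19 in late against early postnatal and 32 in postnatal against prenatal stages, 145 over the steps and 17 for the D0 rise minus the D60 rise. For D9 against D0, median-ratio scaling and quantile normalisation each gave 3 in place of 13. For D9 against E105, a pseudocount of 0.1 gave 4 and median-ratio scaling 3 in place of 1. For postnatal against prenatal stages, in place of 3, pseudocounts of 0.1 and 0.5 gave 8 and 5, median-ratio scaling and quantile normalisation 1 each, and leaving out D0, or D0 and D60 (chosen after seeing the data), 6 each. For D80, the reference D60 and D100 gave 2 and D100 alone gave 1 in place of 0. For the D0 rise minus the D60 rise, in place of 1, both pseudocounts, median-ratio scaling and quantile normalisation gave 2 each, equal sums 3 and the fit of the compared stages alone 0. With each library left out in turn the counts ranged from 11 to 15 at D0, 9 to 17 at D9 against D0, 0 to 1 at D9 against E105, 4 to 7 at D60, 0 to 4 for the D0 rise minus the D60 rise, 2 to 5 for postnatal against prenatal stages and 33 to 44 over the steps. They were 35 throughout for the F test, 1 for late against early postnatal and 0 for D80, E40 and late against early fetal. The cause of these changes was not tested. The fit of the compared stages alone was not run for postnatal against prenatal, which uses all stages. With 3 libraries a stage and unknown depth, the spread between libraries limits every value.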
